A study of Mus musculus with 2 samples.

Results

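The 30 genes described here make sterols or are known targets or regulators of SREBP, the sterol regulatory element binding proteins. They were chosen by symbol, and all 30 were found among the 31057 features counted. Their RNA was measured by single-cell RNA sequencing of adrenal cells from male mice of 15 weeks carrying SF1-Cre and the Rosa mTmG reporter, with the genotype otherwise given as wild type. SF1-Cre drives recombination in the steroidogenic lineage, and mTmG switches a cell and its descendants from a red to a green membrane protein after Cre has acted. The 26 adrenals were pooled, sorting kept live single cells that took up a DNA dye, and no gate on the green reporter is named. The series has a single group in 2 libraries, so every comparison below lies between cell groups within the libraries. Nothing says that the libraries hold separate animals. A general difference between the libraries is taken out by the model. The p-values then measure only how far differences between cell groups disagree between these libraries, with spread borrowed from other genes.

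Cells cannot store much free cholesterol and make it from acetyl units through a long chain of enzymes. When membrane sterol is low, SCAP escorts the SREBP proteins out of the endoplasmic reticulum for cleavage, and the released fragment switches on the genes of sterol synthesis. INSIG proteins hold SCAP back when sterol is plentiful. Steroid-producing cells of the adrenal cortex use cholesterol as the starting material of aldosterone and corticosterone, and take much of it up from lipoproteins. Of the 30 genes, 8 act in the isoprenoid steps that lead from acetyl units to farnesyl and geranylgeranyl diphosphate. Another 11 act in the squalene and sterol steps, 5 are SREBP regulators, 1 is a sterol carrier and 5 are fatty acid desaturases or elongases.

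The promoters of 4 genes are shown because the results below turn on them: Hmgcs1, an early step and the only window found for the 30 genes with the sterol element letters, Idi1 of the isoprenoid steps, Cyp51 of the sterol steps and the regulator Srebf2. Each is the stretch of 250 bases before the annotated start in RefSeq on GRCm38.p6, written on the gene's own strand. The same 250 bases were searched in every gene. The stretches lie at chr13:119690101-119690350 on the plus strand for Hmgcs1, chr13:8885356-8885605 on the plus strand for Idi1, chr5:4104698-4104947 on the minus strand for Cyp51 and chr15:82147019-82147268 on the plus strand for Srebf2. In the GENCODE annotation Idi1 starts at 8885501, Srebf2 at 82147181 and Cyp51, on the minus strand, at 4104746. These starts lie inside the windows, so by that annotation each of these windows runs into its gene. Capitals mark matches, on either strand, to a sterol regulatory element (TCACNCCAC), to CCAAT, which NF-Y binds, and to the GC box GGGCGG, which Sp1 binds.
Hmgcs1: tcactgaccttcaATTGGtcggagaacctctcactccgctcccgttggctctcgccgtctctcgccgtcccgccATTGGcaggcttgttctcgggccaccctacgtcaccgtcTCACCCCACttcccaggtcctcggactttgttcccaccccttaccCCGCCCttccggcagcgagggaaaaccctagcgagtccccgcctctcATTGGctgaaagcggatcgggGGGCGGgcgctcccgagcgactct
Idi1: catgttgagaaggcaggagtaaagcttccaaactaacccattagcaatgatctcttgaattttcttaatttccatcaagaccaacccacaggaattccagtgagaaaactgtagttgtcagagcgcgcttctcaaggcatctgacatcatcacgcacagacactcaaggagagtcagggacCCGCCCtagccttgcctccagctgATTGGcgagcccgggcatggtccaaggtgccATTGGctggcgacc
Cyp51: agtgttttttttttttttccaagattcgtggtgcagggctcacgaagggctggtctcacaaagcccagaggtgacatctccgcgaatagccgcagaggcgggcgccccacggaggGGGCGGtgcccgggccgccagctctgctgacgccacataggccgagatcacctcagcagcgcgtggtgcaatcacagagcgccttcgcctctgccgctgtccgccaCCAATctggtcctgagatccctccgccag
Srebf2: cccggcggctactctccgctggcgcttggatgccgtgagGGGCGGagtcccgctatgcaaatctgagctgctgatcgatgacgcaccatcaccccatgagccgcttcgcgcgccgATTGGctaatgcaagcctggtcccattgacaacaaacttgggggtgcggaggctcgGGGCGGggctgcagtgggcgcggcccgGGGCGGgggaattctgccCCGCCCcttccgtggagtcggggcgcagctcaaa
Hmgcs1 held 1 match to the sterol element, 3 to CCAAT and 2 to the GC box. Idi1 held 2 and 1 of the latter pair, Cyp51 1 and 1, and Srebf2 1 and 4. Windows were found for 23 of the 30 genes. The sterol element letters were in 1 of these 23 (4.35%), and in 1.22% of the 27025 genes with a window. CCAAT was in 19 of the 23 (82.6%) against 37.5% of all genes, and the windows of Acat2, Scap, Fads2 and Elovl6 lacked it. The GC box was in 20 of the 23 (87%) against 35.4% of all genes. A match is only a match of letters, and these shares were not tested.

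Library 1 held 4574 cortical cells and library 2 held 1869, out of 4689 and 1970 cells kept. Cells were called cortical from the summed level of Star, Cyp11a1, Hsd3b1 and Cyp21a1, and 115 and 101 kept cells did not qualify. Median depth of cortical cells was 18317.5 UMIs (unique molecular identifiers, 1 for each captured RNA molecule) in library 1 and 15125 in library 2, and the libraries shared 4 barcodes. Levels are counts per 1000000 UMIs (CPM) over the summed cells of a group. Since 3' counting gives each transcript 1 tag, CPM does not grow with gene length. The libraries stood apart for several of the 30 genes over all cortical cells. Hmgcs1 was at 55.3 CPM in library 1 and 131.7 in library 2, Cyp51 at 38.7 and 72.1, and Insig1 at 42.4 and 70.6, whereas Srebf2 was at 61.9 and 62.8.

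Cortical cells were grouped by the 2 zone enzymes, Cyp11b2, the aldosterone synthase of the zona glomerulosa, and Cyp11b1, the 11-beta-hydroxylase of the zona fasciculata. Cyp11b2-high cells had at least 200 CPM of Cyp11b2 and under 200 of Cyp11b1 (485 cells in library 1, 260 in library 2). Cyp11b1-high cells had under 200 CPM of Cyp11b2 and at least 1000 of Cyp11b1 (529 and 374). Cyp11b1-intermediate cells had 200 to under 1000 CPM of Cyp11b1 (627 and 221), double-low cells had under 200 of each (2885 and 987), and double-positive cells had at least 200 of each (48 and 27). The paralogs Cyp11b1 and Cyp11b2 may share reads, and neither is a result here. Of 7 glomerulosa markers, Vsnl1, Wnt4, Dab2, Agtr1a and Agtr1b were lower in Cyp11b1-high than in Cyp11b2-high cells in both libraries, and Vsnl1 was at 769.6 and 1042 CPM in Cyp11b2-high cells and at 141.4 and 112.2 in Cyp11b1-high cells. Shh went the other way, from 210.6 and 195.9 to 236.5 and 329 CPM, and Hsd3b6 was at 211.8 and 270 against 230 and 174.5. Of the fasciculata markers other than Cyp11b1, Mrap and Abcb1b were higher in Cyp11b1-high cells in both libraries, while Akr1b7 was at 1660 and 1503 CPM against 1330 and 1812. Abcb1b was at 19.98 and 16.54 CPM in Cyp11b2-high cells and at 444.3 and 904.9 in Cyp11b1-high cells. The groups also differed in depth: median UMIs were 20860 and 17960 in Cyp11b2-high cells and 16060 and 13900 in Cyp11b1-high cells. Malat1, a nuclear RNA, was at 20840 and 26820 CPM against 29620 and 40390. The 5 endothelial markers summed to 2.008 and 1.918 CPM against 18.39 and 10.83. The 5 inner cortex markers summed to 10.34 and 11.99 CPM, nearly all Thrb, in Cyp11b2-high cells and to 272.9 and 513.5, mostly Aldh1a1, in Cyp11b1-high cells. Over all cell groups the leukocyte list stayed between 0 and 4.316 CPM, the capsule and stroma list between 4.789 and 32.6, and the Schwann list between 2.587 and 13.78 with Sox10 at 0. Th, Dbh and Pnmt of chromaffin cells were at 0. Apart from the thinning and the leaving out of Aldh1a1-high cells given below, the part of these in the results was not tested.

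The sterol pathway was lower in Cyp11b1-high than in Cyp11b2-high cells along nearly its whole length. Of the 30 genes, 20 fell, 3 rose and 7 did not pass the test, where 19.7% of the 12005 genes tested fell and 17.6% rose (edgeR, adjusted p under 0.05). The median log2 difference was -1.09 over the 30 genes and -0.0059 over all genes. Of the 19 enzymes of the isoprenoid and sterol steps, 15 fell and none rose; the other 4 were Acat2, Ggps1, Tm7sf2 and Ebp. Their summed level was 1266 CPM in library 1 and 1873 in library 2 of Cyp11b2-high cells, and 654.1 and 828.9 in Cyp11b1-high cells, so the groups did not overlap. The share of all genes whose libraries do not overlap was not counted. Overlap is therefore only a description, here and below.

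**Figure D1:**
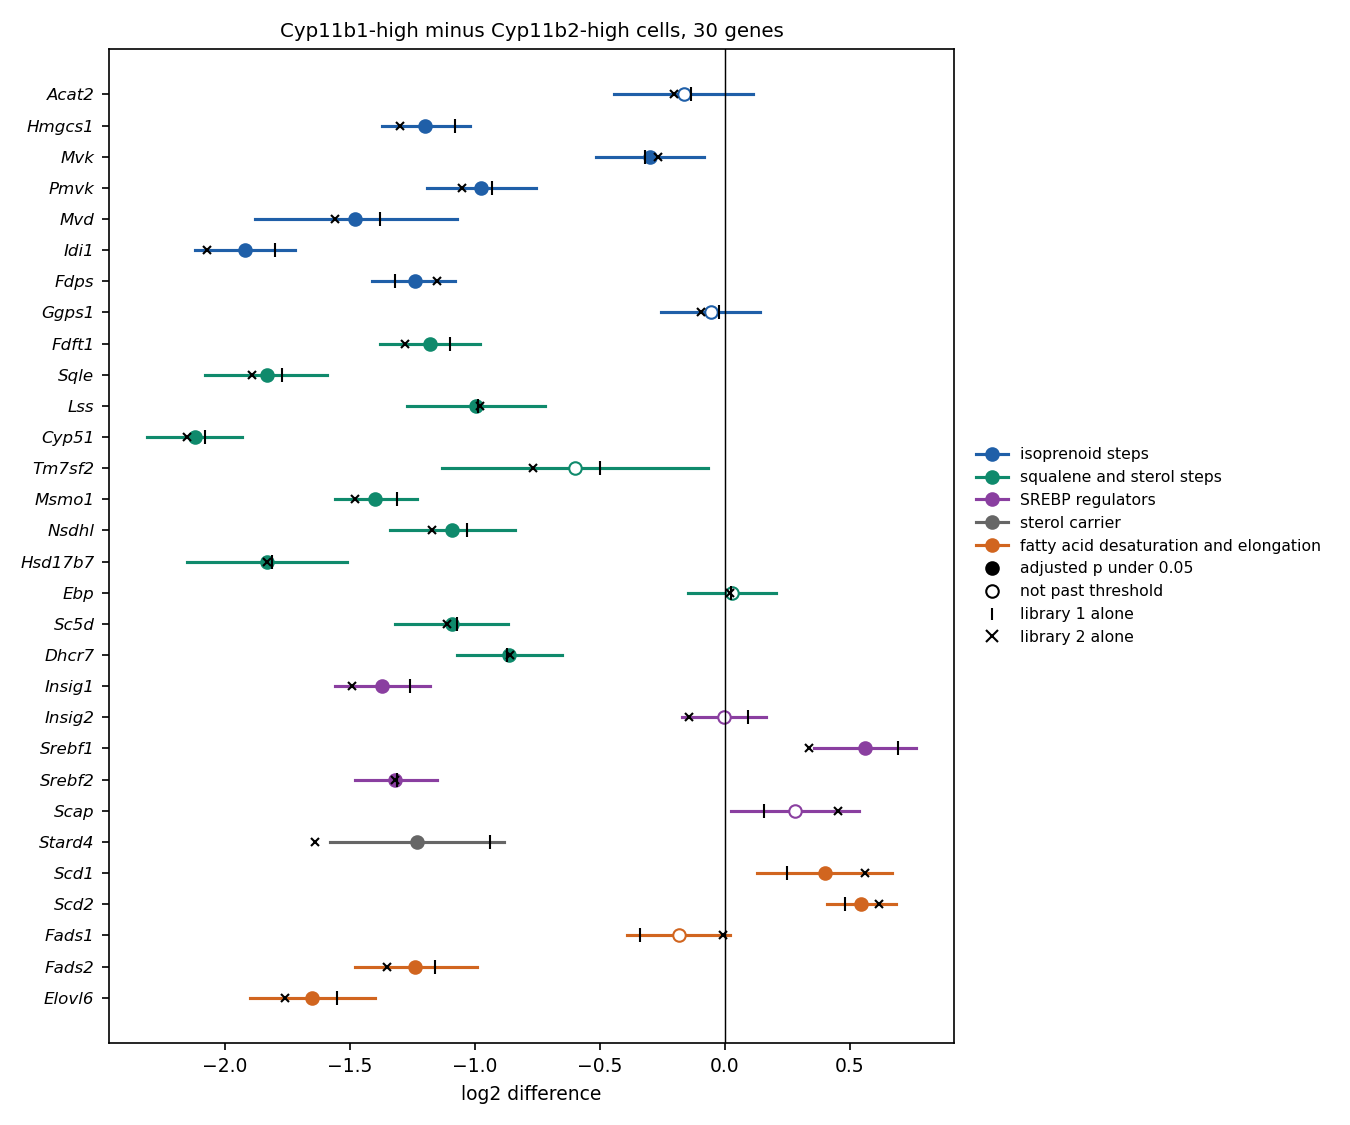
Log2 difference between Cyp11b1-high and Cyp11b2-high cells for each of the 30 genes, coloured by role. Circles are the edgeR estimates with 95% confidence intervals, filled where the adjusted p was under 0.05, and the tick and cross are the values in library 1 and library 2 alone. Cyp51 lies farthest to the left at -2.12, and Srebf1, Scd1 and Scd2 are the 3 filled circles to the right of 0.

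Among the isoprenoid steps, Idi1, which interconverts the isoprene building blocks, was at 130.8 CPM in library 1 and 205.0 in library 2 of Cyp11b2-high cells and at 40.6 and 50.8 in Cyp11b1-high cells. It fell by 1.92 on the log2 scale (SE 0.10, n = 2 libraries, edgeR adjusted p = 3.63e-13). Hmgcs1, which makes HMG-CoA, was at 89.1 and 229.2 CPM against 45.4 and 96.8. Here library 2 of the lower group exceeded library 1 of the higher group, while within each library the level was lower in Cyp11b1-high cells, and the change was -1.20 (SE 0.08, edgeR adjusted p = 9.24e-11). Fdps, the farnesyl diphosphate synthase, was at 116.1 and 129.0 CPM against 50.4 and 60.6, with no overlap. It fell by 1.24 (SE 0.08, edgeR adjusted p = 2.08e-11); the gene overlaps the predicted gene Gm43738 on the same strand. Mvd, Pmvk and Mvk, which phosphorylate or decarboxylate mevalonate products, fell by 1.48, 0.97 and 0.30. Acat2, the first thiolase, was at 19.3 and 25.4 CPM against 18.99 and 22.9, a log2 difference of -0.17 with a 95% interval from -0.44 to 0.11. Ggps1, which makes geranylgeranyl diphosphate on a branch away from sterols, was at 48.9 and 58.7 against 52.1 and 57.3 CPM. Its difference was -0.058, with an interval from -0.26 to 0.14.

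In the squalene and sterol steps, Cyp51, the lanosterol demethylase, showed the biggest difference of the 30. It was at 78.6 CPM in library 1 and 153.2 in library 2 of Cyp11b2-high cells and at 19.96 and 35.8 in Cyp11b1-high cells. This was 4.35-fold lower, a change of -2.12 on the log2 scale (SE 0.09, n = 2, edgeR adjusted p = 2.74e-14). Sqle, the squalene epoxidase, is an oxygen-requiring control point of the pathway. Its level was 44.7 and 74.8 CPM against 14.1 and 20.8, a change of -1.83 (SE 0.12, edgeR adjusted p = 2.08e-11). Hsd17b7, a 3-ketosteroid reductase, was at 30.4 and 43.9 CPM against 9.26 and 12.7. It too fell by 1.83 (SE 0.15, edgeR adjusted p = 2.13e-09). Msmo1, the C4-methylsterol oxidase, was at 262.4 and 409.5 CPM against 114.1 and 152.2. It fell by 1.40 (SE 0.08, edgeR adjusted p = 3.70e-12), and for Cyp51, Sqle, Hsd17b7 and Msmo1 the libraries of the groups did not overlap. Fdft1, the squalene synthase, fell by 1.18, and Lss, Nsdhl, Sc5d and Dhcr7 fell by 0.86 to 1.09. Ebp, the sterol isomerase, was at 58.5 and 58.7 CPM against 64.4 and 62.1, a difference of 0.028 with an interval from -0.15 to 0.20. Tm7sf2, a sterol reductase counted at only 4.16 to 7.13 CPM and overlapping Vps51 on the same strand, was at -0.60 (edgeR adjusted p = 0.0718).

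The SREBP regulators moved apart. Srebf2, whose protein mainly drives the sterol genes, was at 90.7 CPM in library 1 and 92.8 in library 2 of Cyp11b2-high cells and at 39.6 and 38.5 in Cyp11b1-high cells. It fell by 1.32 (SE 0.08, n = 2, edgeR adjusted p = 8.73e-12), with -1.31 and -1.32 in the separate libraries. Srebf1, whose protein mainly drives fatty acid genes, was at 42.2 and 47.0 CPM against 73.8 and 61.8, so its groups did not overlap in the other direction. It rose by 0.56 (SE 0.10, edgeR adjusted p = 8.09e-05). Insig1, itself a sterol-regulated SREBP target, was at 70.4 and 128.8 CPM against 31.6 and 47.7 and fell by 1.37 (SE 0.09, edgeR adjusted p = 3.78e-11). Its homolog Insig2 was at 56.0 and 68.6 against 64.7 and 64.6 CPM, which overlap, with a difference of -0.0045 and an interval from -0.17 to 0.17. Scap was at 23.6 and 25.4 CPM against 28.5 and 36.2; these did not overlap, but the difference of 0.28 missed the threshold (edgeR adjusted p = 0.0793). Stard4, which carries cholesterol between membranes in the cytosol, was at 23.8 and 37.2 CPM against 13.3 and 12.3 and fell by 1.23 (SE 0.17, edgeR adjusted p = 3.23e-06).

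**Figure D2:**
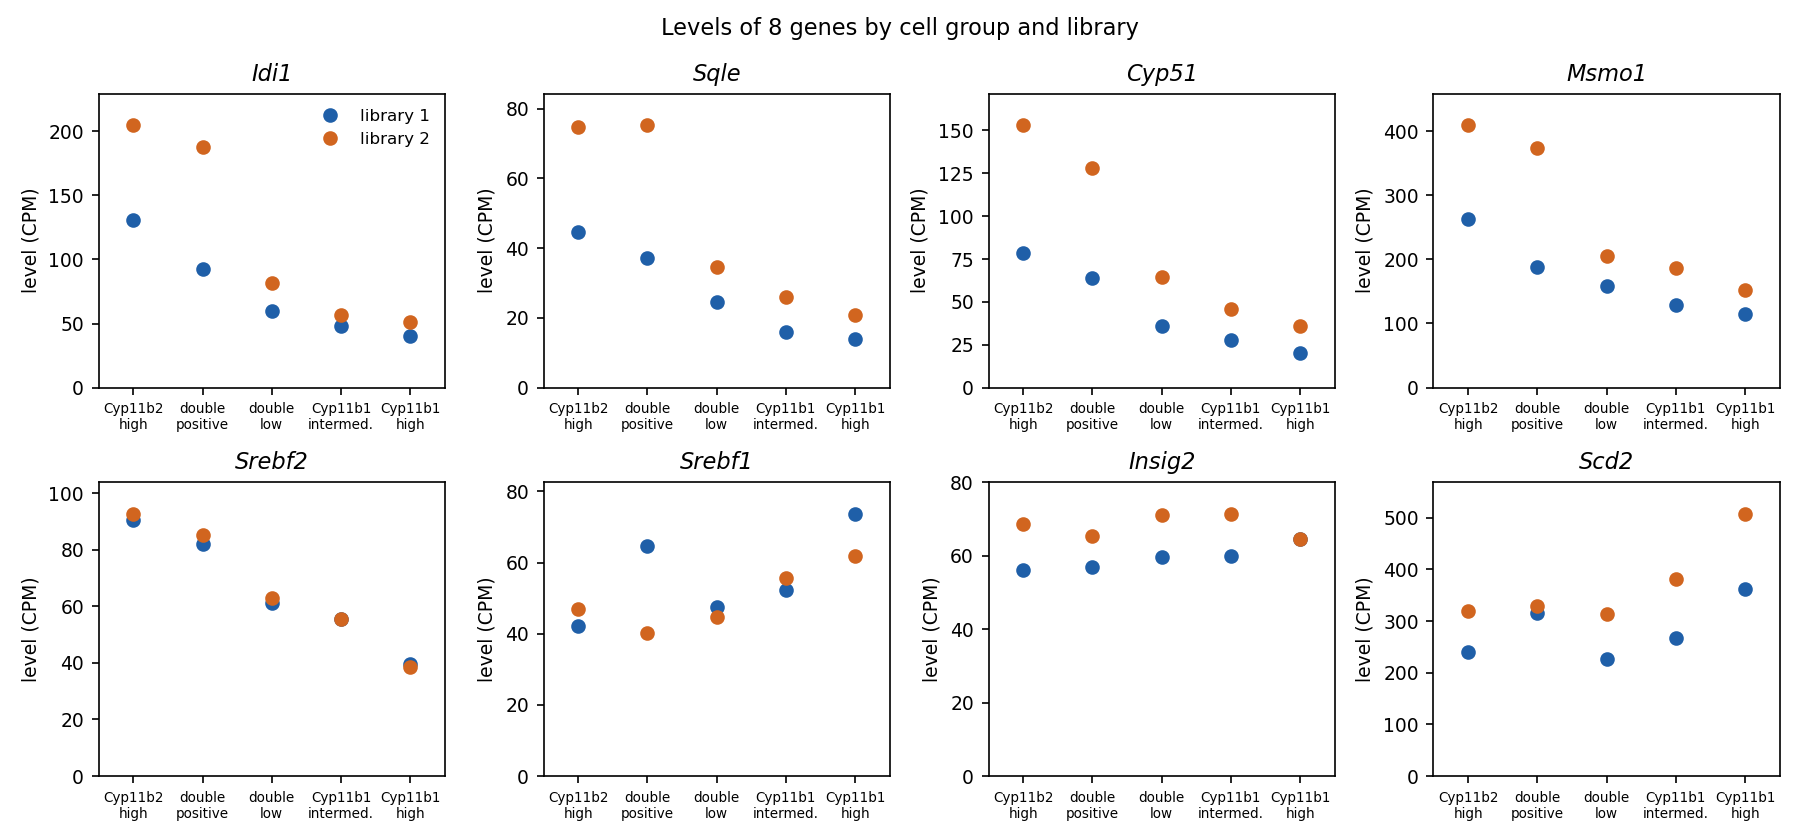
Levels in CPM (linear axes from 0) of 8 genes in the 5 cell groups, with 1 point for each library. Idi1, Sqle, Cyp51, Msmo1 and Srebf2 are lowest in Cyp11b1-high cells in both libraries, Srebf1 and Scd2 are higher there than in Cyp11b2-high cells, and Insig2 stays between 56.0 and 71.5 CPM in all groups.

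The 5 fatty acid genes did not move as a block. Elovl6, which elongates palmitate, was at 61.6 and 94.7 CPM in Cyp11b2-high cells and at 22.6 and 28.9 in Cyp11b1-high cells. It fell by 1.65 (SE 0.12, edgeR adjusted p = 2.70e-10). Fads2, the delta-6 desaturase, was at 54.9 and 64.5 CPM against 26.6 and 26.2 and fell by 1.24 (SE 0.12, edgeR adjusted p = 1.81e-08). Its neighbour Fads1, the delta-5 desaturase, was at 104.8 and 111.2 CPM against 89.7 and 115.1, with a difference of -0.19 (edgeR adjusted p = 0.155). The stearoyl-CoA desaturases make monounsaturated fatty acids, with which cholesterol can be esterified for storage. Scd2 was at 239.7 and 318.6 CPM against 361.6 and 508.1 and rose by 0.55 (SE 0.07, edgeR adjusted p = 6.05e-07). Scd1, at 17.4 and 24.0 against 22.4 and 36.9 CPM with overlapping libraries, rose by 0.40 (SE 0.13, edgeR adjusted p = 0.0192). Scd1 and Scd2, and Fads1 and Fads2, are paralogs whose reads the counting could share. The median of the 5 was -0.19, but their summed level was 478.3 and 613.1 CPM in Cyp11b2-high cells and 522.8 and 715.2 in Cyp11b1-high cells, and Scd2 is the largest part of that sum.

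Without the library term in the model, 16 genes fell in this comparison and none rose, where 510 of 12005 genes fell and 552 rose. The log2 ratio of the summed 30 genes was -0.599. It was -0.424 when cells were thinned to 5000 UMIs and grouped anew from the thinned counts, which moved cells between groups, and -0.598 when they were thinned with their groups kept. With Aldh1a1-high cells (at least 500 CPM) left out, 21 genes fell and 2 rose, where 2067 of 11929 genes fell and 2115 rose.

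Among 14 further genes of fatty acid synthesis and SREBP processing, 4 rose and 1 fell between the same groups, beside the 17.6% and 19.7% of all genes. Thrsp, a lipogenic nuclear protein with only 7 and 4 UMIs in Cyp11b2-high cells, rose by 3.85 and the malic enzyme Me1, which supplies NADPH, by 1.25, while the acetyl-CoA carboxylase Acacb fell by 0.88. Of 13 genes of cholesterol use, storage and efflux, 12 could be tested, 3 rose and 5 fell, against the same shares. Abca1, the cholesterol exporter, was at 8.03 and 14.2 CPM in Cyp11b2-high cells and 87.5 and 146.4 in Cyp11b1-high cells, a rise of 3.32. Nr1h3, which encodes the oxysterol receptor LXR-alpha, had 9 and 1 UMIs (0.904 and 0.240 CPM) in Cyp11b2-high cells and was at 3.61 and 5.21 CPM in Cyp11b1-high cells. Its rise of 2.47 (SE 0.51) was 1.71 in library 1 alone and 3.59 in library 2 alone. Mylip, an LXR target that marks lipoprotein receptors for degradation, fell by 1.24, and the lysosomal lipase Lipa fell by 1.02.

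Cells with little of either enzyme, and cells with intermediate Cyp11b1, were also lower in the sterol genes than Cyp11b2-high cells. Both comparisons use the same Cyp11b2-high cells as the one above, so their values are given side by side and not as independent support. In double-low cells 22 of the 30 genes fell and none rose, where 7.96% of all genes tested fell and 6.5% rose, with a median of -0.74 against 0.014 over all genes. In Cyp11b1-intermediate cells 22 fell and none rose, where 11% of all genes fell and 7.81% rose, with a median of -0.95 against 0.0076. The sterol and isoprenoid enzymes summed to 794.0 CPM in library 1 and 1025 in library 2 of double-low cells and to 691.4 and 855.7 in Cyp11b1-intermediate cells. All of these lie below the 1266 of library 1 of the Cyp11b2-high cells. Without the library term no gene of the 30 fell in double-low cells, where 1 of all 12005 genes fell, and 8 fell in Cyp11b1-intermediate cells, where 53 of all genes did.

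The plot of levels by cell group shows single genes in these groups. Cyp51 was at 36.1 and 64.4 CPM in double-low cells and at 28.0 and 45.8 in Cyp11b1-intermediate cells, changes of -1.23 (SE 0.07) and -1.68 (SE 0.09) from the Cyp11b2-high cells. Idi1 was at 59.8 and 81.4 CPM and at 47.8 and 56.5, changes of -1.27 and -1.69. Fads2 fell by 1.33 and 1.74. Srebf2 was at 61.1 and 63.1 CPM in double-low cells and at 55.4 and 55.5 in Cyp11b1-intermediate cells, changes of -0.61 (edgeR adjusted p = 4.61e-07) and -0.81 (4.05e-08). Insig1 fell by 0.94 and 1.17. Srebf1, Insig2, Scap, Scd1 and Scd2 did not pass the test in either comparison. Of the 14 genes of the fatty acid list, 2 rose and 5 fell in each of these groups. Of the 12 tested of the cholesterol use list, 1 rose in each group, while 5 fell in double-low and 6 in Cyp11b1-intermediate cells. Of all genes, 6.5% rose and 7.96% fell in double-low cells, and 7.81% rose and 11% fell in Cyp11b1-intermediate cells.

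Direct comparisons then placed the Cyp11b1-high cells against these neighbours. Both were added after the data had been seen. Cyp11b2 was at 41.96 and 33.32 CPM in double-low cells, 33.21 and 22.05 in Cyp11b1-intermediate cells and 12.26 and 6.455 in Cyp11b1-high cells. In double-low cells with no Cyp11b2 UMI the 19 enzymes summed to 672.9 and 908.6 CPM, beside 654.1 and 828.9 in Cyp11b1-high cells. The part of Cyp11b2 in the differences below was not tested. Against double-low cells, 16 of the 30 genes fell and 5 rose, where 16.5% and 15% of all genes did. Cyp51 fell by 0.89 (SE 0.09, edgeR adjusted p = 6.38e-08), Sqle by 0.82, Srebf2 by 0.70 and Elovl6 by 0.66. Scd2 rose by 0.66, Scd1 by 0.65, Fads1 by 0.60, Srebf1 by 0.52 and Scap by 0.31. Without the library term only 1 of the 30 genes fell and none rose, where 276 of 12005 genes fell and 291 rose. Against Cyp11b1-intermediate cells, only Srebf2 (-0.51, SE 0.09, edgeR adjusted p = 0.000204) and Cyp51 (-0.44) fell, where 7.84% of all genes fell. The 5 genes that rose, where 7.56% of all genes rose, were Scd1 (0.70), Fads1 (0.68), Fads2 (0.50), Scd2 (0.44) and Srebf1 (0.38). This step thus held changes in 4 of the 5 fatty acid genes and in 1 of the 19 sterol pathway enzymes, and without the library term it held none, where 10 of all genes fell and 34 rose. With thinning and the groups kept, none of the 30 fell and 2 rose, where 354 of 10345 genes fell and 429 rose. The Scap call against double-low cells was lost with DESeq2, with thinning and without Aldh1a1-high cells, and the Srebf1 call against Cyp11b1-intermediate cells with DESeq2 and with thinning.

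Double-positive cells stayed nearer to the Cyp11b2-high cells. Of the 30 genes, 2 fell and none rose, where 0.125% of all genes fell and 0.0333% rose. An unadjusted edgeR p under 0.05 was found for 11 of the 30, a larger share than the 8.9% of all genes. Fdft1 was at 53.7 and 72.9 CPM in Cyp11b2-high cells and at 30.2 and 37.7 in double-positive cells, with no overlap. It fell by 0.97 (SE 0.18, edgeR adjusted p = 0.024). Insig1 was at 50.0 and 57.7 CPM in double-positive cells, below the 70.4 and 128.8 of the reference, and fell by 0.81 (SE 0.16, edgeR adjusted p = 0.0333). Srebf2 was at 81.9 and 85.3 CPM, and its difference of -0.22 did not pass the test, nor did those of Srebf1 (0.31), Insig2 (-0.096) and Scap (-0.015). With 48 and 27 cells this is the smallest group, and both calls were lost without the library term and with a limit of 100 CPM in place of 200. Of all genes, 0 of 12005 fell without that term and 4 of 12012 with that limit. Both calls were also lost after thinning to 5000 UMIs with new groups, which held 193 and 66 double-positive cells, where 9 of 10356 genes fell. With thinning and the groups kept, 1 gene fell, where 9 of 10345 genes did.

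The sterol genes were graded over Cyp11b2. Among cells with Cyp11b1 under 200 CPM, the 19 enzymes summed to 672.9 CPM in library 1 and 908.6 in library 2 where no Cyp11b2 UMI was counted. They stood at 902.0 and 1163 in cells above 0 to 100 CPM of Cyp11b2, 998.9 and 1370 from 100 to 200, 1239 and 1679 from 200 to 400, and 1352 and 2109 at 400 or more. Each step up in Cyp11b2 came with a higher sum in both libraries. Srebf2 went from 51.6 and 59.6 CPM in the lowest bin to 103.1 and 88.8 in the highest, and Fads2 from 17.4 and 17.0 to 72.9 and 77.6. Depth moved with the bins at their low end, where cells with no Cyp11b2 UMI had medians of 16830 and 14010 UMIs and the next bin 20910 and 17200. These are descriptions, with no test.

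**Figure D3:**
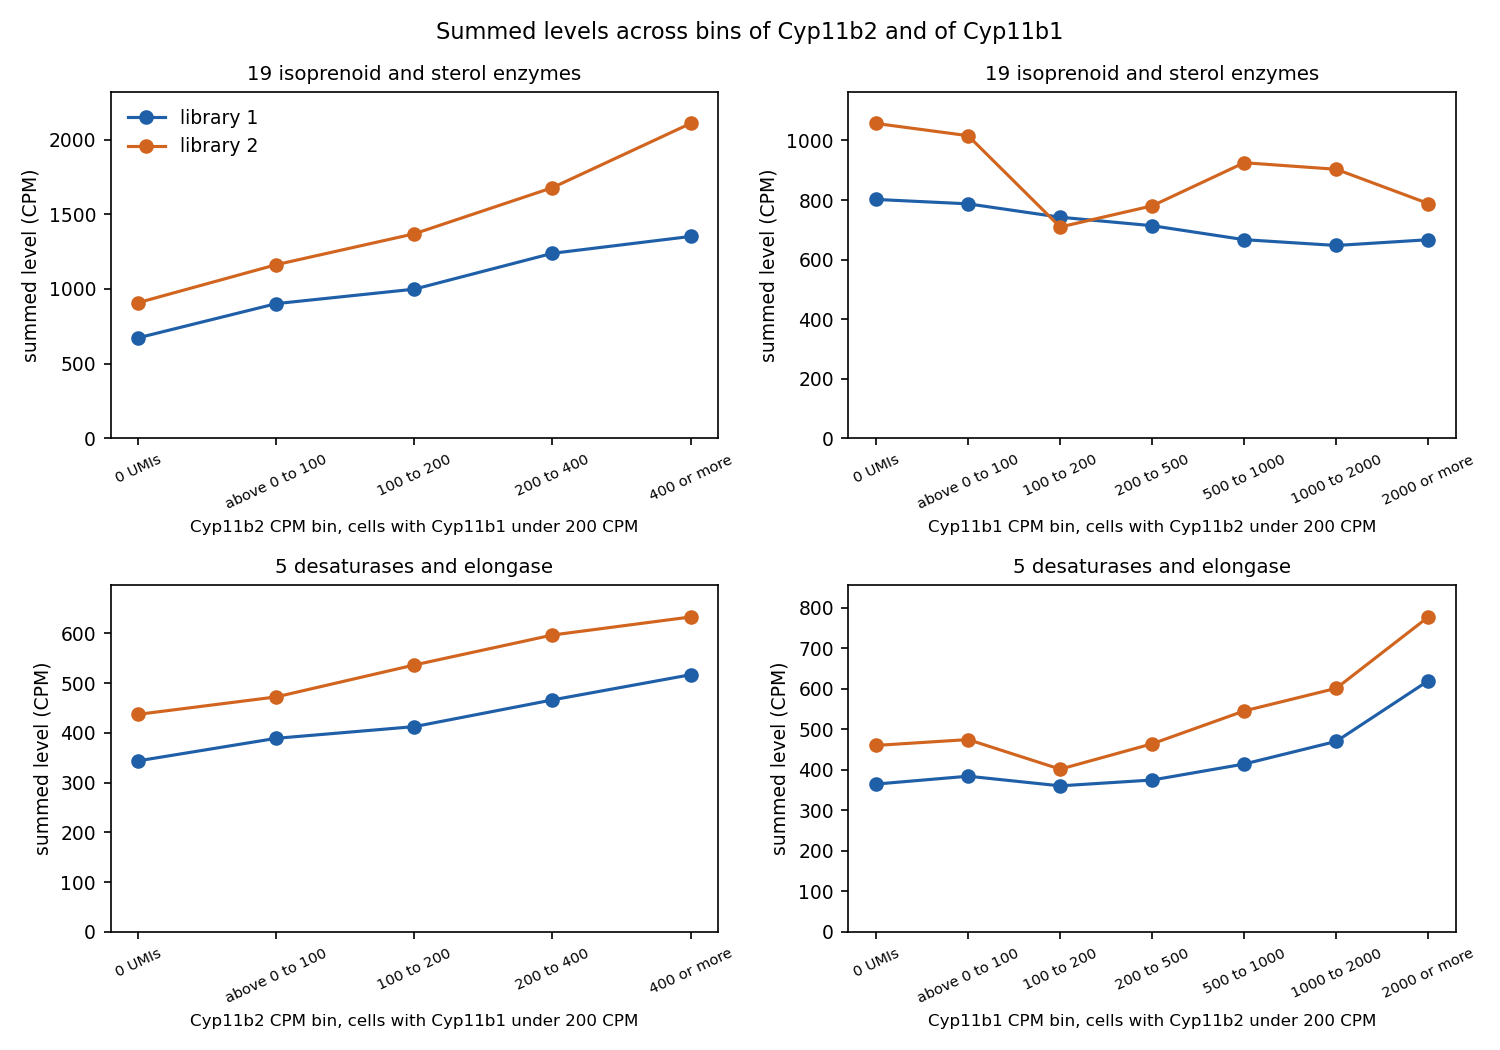
Summed levels in CPM (linear axes from 0) across bins of Cyp11b2 (left) and of Cyp11b1 (right), for the 19 isoprenoid and sterol enzymes (top) and the 5 fatty acid genes (bottom), with 1 line for each library. The enzymes climb with Cyp11b2 from 672.9 to 1352 CPM in library 1, and the summed fatty acid genes stand at 364.8 CPM with no Cyp11b1 UMI, 360.4 from 100 to 200 and 620 in the highest bin of library 1.

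Over Cyp11b1 the enzymes were lower and the summed fatty acid genes higher in the highest bin than with no Cyp11b1 UMI. Among cells with Cyp11b2 under 200 CPM, the 19 enzymes went from 801.9 CPM in library 1 and 1057 in library 2 with no Cyp11b1 UMI to 666.6 and 788.2 at 2000 CPM or more. Cyp11b2 could vary below its limit across these bins, and its part in the sums was not tested. The course was not even. In library 2 the sum was 709.3 CPM from 100 to 200, a bin of 65 cells, and 925.2 from 500 to 1000, and in library 1 it was 647.3 from 1000 to 2000, below the highest bin. The 5 fatty acid genes went from 364.8 and 460.3 CPM to 620.0 and 777.6, after 360.4 and 401.6 in the bin from 100 to 200. Scd2 made up much of that sum, from 221 and 312.6 CPM to 410.4 and 552, and Fads1 went from 65.6 and 60.8 to 122.6 and 128.3. Elovl6 went the other way, from 36.7 and 42.8 to 23.98 and 25.8 CPM.

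Within the double-low, non-cycling cells the 30 genes varied together to different degrees. Double-low cells hold from 0 to under 200 CPM of Cyp11b2, a range over which the summed enzymes were graded, as given above. The part of that gradient in the values below was not tested, and no other genes were taken as a reference. In these cells, thinned to 5000 UMIs (2045 cells in library 1 and 554 in library 2), each gene was set against the sum of the other 29. Pearson's r was 0.306 and 0.46 for Cyp51, 0.33 and 0.403 for Idi1, 0.308 and 0.395 for Fdps, 0.301 and 0.378 for Msmo1 and 0.266 and 0.4 for Sqle. It lay at or below 0.0602 in both libraries for Ggps1, Ebp, Insig2, Srebf1 and Scap. Cells of a library share its depth and free RNA, and mean counts were at most 1.6 UMIs a cell, so these values only describe the libraries.

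The second set of comparisons asked how the 30 genes stood in dividing cells. Cortical cells thinned to 5000 UMIs were called G2/M with UMIs of at least 3 G2/M genes (68 cells in library 1, 25 in library 2), S-phase with at least 4 S genes and fewer than 3 G2/M genes (114 and 51), and non-cycling with at most 1 of each (3273 and 1086). Cells were called G2/M whatever their S genes. The S list summed to 2608 and 3147 CPM in G2/M cells, 1488 and 1196 in S-phase cells and 151.4 and 174.9 in non-cycling cells. The G2/M group is thus not free of S-phase genes, and the names follow the rule only. In G2/M cells 9 of the 30 genes fell and 3 rose, where 13% of the 10590 genes tested fell and 18.6% rose. The median was -0.34 against -0.014 over all genes. G2/M cells were deeper, with medians of 24510 and 18730 UMIs against 18560 and 16160, and held less Malat1, 12420 and 13420 CPM against 23300 and 32580. The 5 shared steroidogenic markers summed to 7933 and 7428 CPM against 15980 and 15920. The zone enzymes differed too. Cyp11b2 was at 33.68 and 21.65 CPM in G2/M cells against 82.06 and 105.5 in non-cycling cells, and Cyp11b1 at 106.5 and 72.82 against 298.3 and 685. Apart from the thinning and the limit on Cyp11b1 given below, the part of these in the result was not tested.

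**Figure D4:**
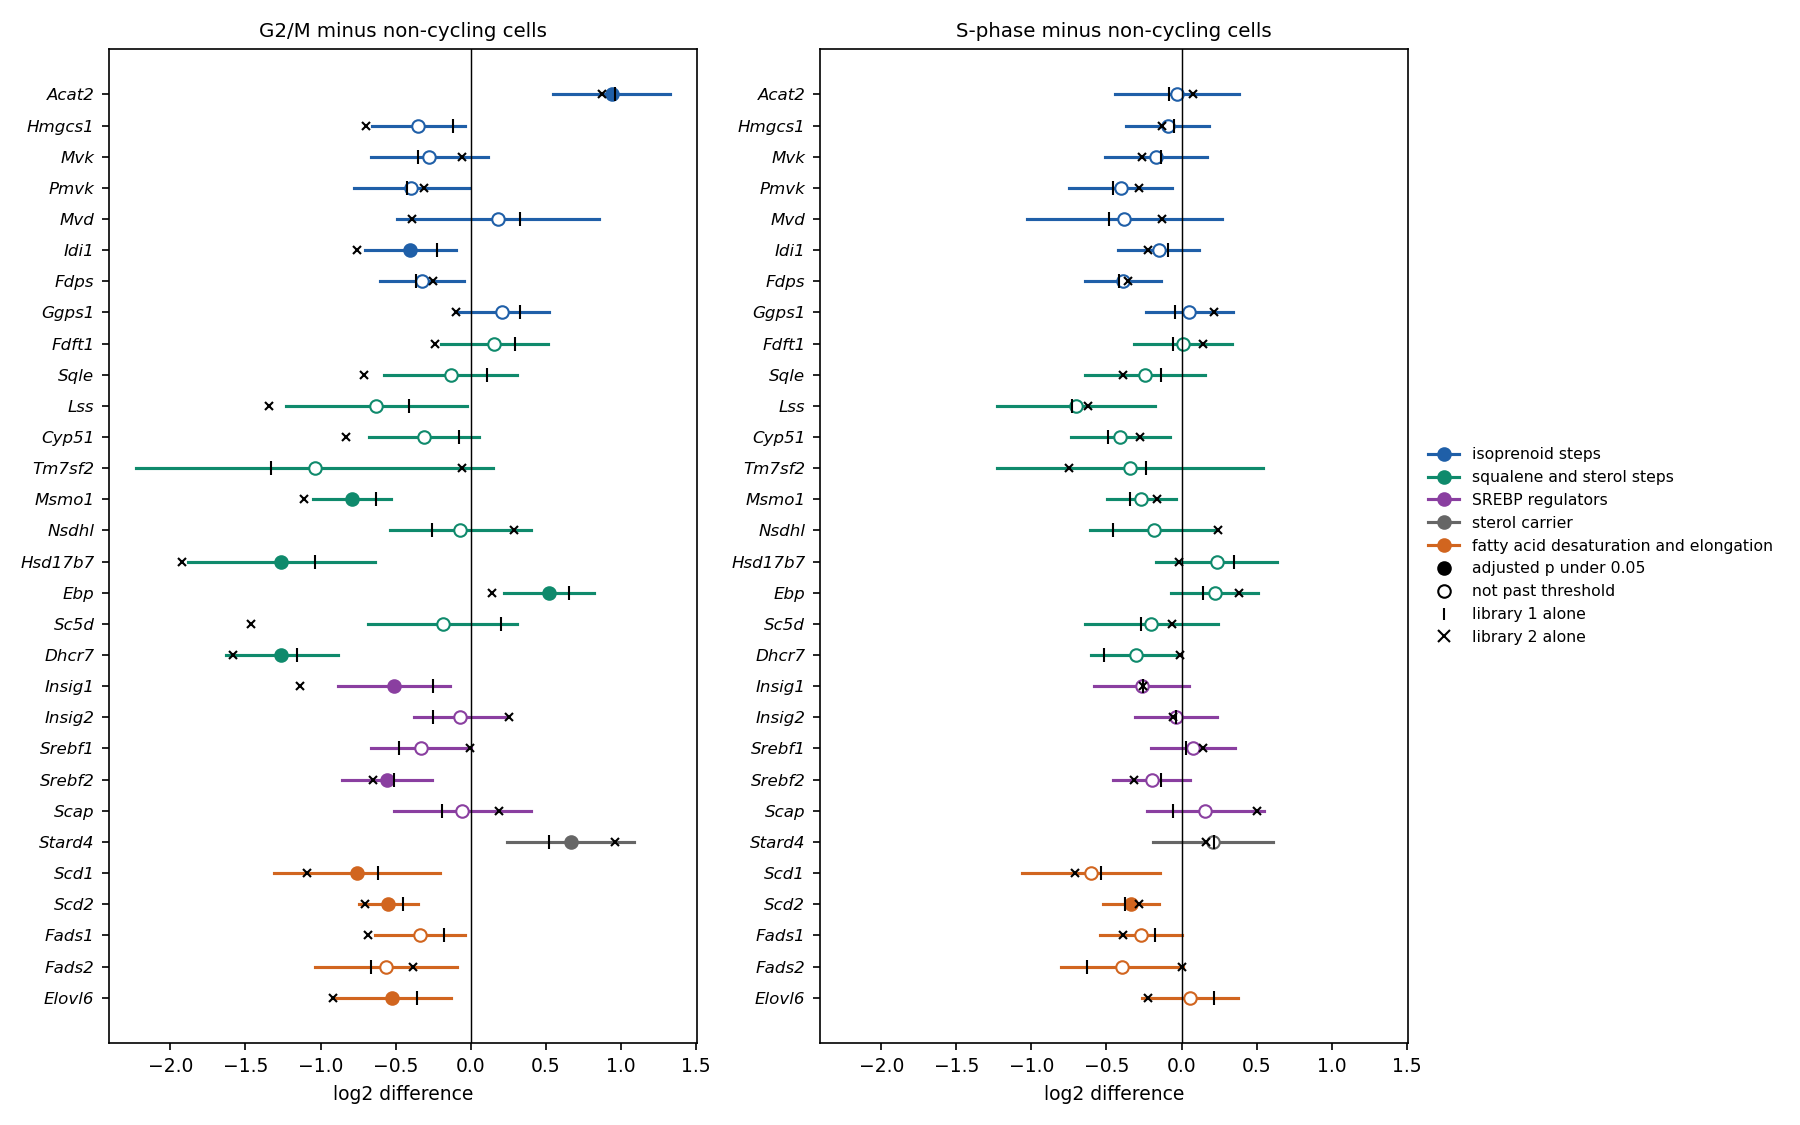
Log2 differences of the 30 genes between G2/M and non-cycling cells (left) and between S-phase and non-cycling cells (right), coloured by role. Circles are edgeR estimates with 95% confidence intervals, filled where the adjusted p was under 0.05, and the tick and cross are library 1 and library 2 alone. Acat2, Stard4 and Ebp lie to the right of 0 in G2/M cells, and Scd2 is the only filled circle in S-phase cells.

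Of the 11 genes of the squalene and sterol steps, 3 fell in G2/M cells, 1 rose and 7 did not pass the test, and of the 8 isoprenoid genes 1 fell and 1 rose. Dhcr7, the last reductase before cholesterol on one of its branches, was at 74.2 CPM in library 1 and 94.1 in library 2 of non-cycling cells and at 34.2 and 31.5 in G2/M cells. It fell by 1.26 (SE 0.18, n = 2, edgeR adjusted p = 2.77e-05), and the groups did not overlap. Hsd17b7, at 17.5 and 22.7 against 8.69 and 5.91 CPM, also fell by 1.26 (SE 0.29, edgeR adjusted p = 0.00329). Msmo1 was at 168.2 and 241.8 CPM against 112.5 and 112.2 and fell by 0.79 (SE 0.12, edgeR adjusted p = 7.81e-05). Idi1, at 67.4 and 96.3 against 59.8 and 57.1 CPM, fell by 0.40 (edgeR adjusted p = 0.0436).

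Of the regulators, Srebf2 was at 62.9 and 64.8 CPM in non-cycling cells and at 45.6 and 41.3 in G2/M cells, a change of -0.56 (SE 0.14, edgeR adjusted p = 0.00572). Insig1 was at 44.5 and 73.4 CPM against 38.6 and 33.5 and fell by 0.51 (SE 0.18, edgeR adjusted p = 0.035). The differences of Srebf1 (-0.33), Insig2 (-0.072) and Scap (-0.056) did not pass the test. Scd2 was at 250 and 367.1 CPM against 189.1 and 226.3 and fell by 0.55 (SE 0.09, edgeR adjusted p = 0.000211). Scd1 fell by 0.76 (edgeR adjusted p = 0.0354) and Elovl6 by 0.53 (0.0411).

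The 3 genes that rose in G2/M cells came from 3 classes. Acat2 was at 15.9 and 21.3 CPM in non-cycling cells and at 32.1 and 39.4 in G2/M cells, a rise of 0.94 (SE 0.19, edgeR adjusted p = 0.000818) with no overlap. Stard4 was at 16.8 and 21.1 CPM against 24.99 and 41.3 and rose by 0.67 (SE 0.20, edgeR adjusted p = 0.0169). Ebp was at 60.2 and 55.1 CPM against 97.8 and 61.0 and rose by 0.52 (SE 0.14, edgeR adjusted p = 0.00944), mostly through library 1. Acat2 and Ebp were thus among the 4 enzymes that did not pass the test between Cyp11b1-high and Cyp11b2-high cells. With DESeq2, 4 of the 30 genes fell and 1 rose in G2/M cells, where 729 of 10590 genes fell and 1385 rose. After thinning 4 fell and 1 rose as well, where 497 of 7290 genes fell and 741 rose. Without the library term 3 fell and 1 rose, where 189 of 10590 genes fell and 922 rose. The calls of Srebf2 and Insig1 were lost in each of these, those of Hsd17b7 and Acat2 with thinning, and those of Stard4 and Scd1 with DESeq2. Among cells with Cyp11b1 under 200 CPM, 12 genes fell and 2 rose, where 1209 of 10304 genes fell and 1837 rose. That limit sets no bound on Cyp11b2.

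Of the fatty acid list, 13 of 14 genes were tested in G2/M cells, 1 rose and 4 fell, beside 18.6% and 13% of all genes. Acacb fell by 1.66, with -1.34 in library 1 and -3.60 in library 2, where G2/M cells held 1 UMI of it. The cholesterol use list had 1 gene that rose and 8 that fell of 11 tested. Abca1 was at 34.0 and 64.9 CPM in non-cycling cells and 14.7 and 17.7 in G2/M cells, a change of -1.46. Scarb1, the receptor that takes up cholesterol esters from high-density lipoprotein, was at 233.2 and 340.3 CPM against 123.9 and 88.6, a change of -1.30. Mylip rose by 1.46.

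In S-phase cells 1 of the 30 genes fell and none rose, where 0.378% of all genes fell and 3.06% rose (3.44% in all). An unadjusted edgeR p under 0.05 was found for 8 of the 30, a larger share than the 13% of all genes. Scd2 was at 193.8 and 299.0 CPM in S-phase cells, below the 250 and 367.1 of non-cycling cells in each library though the ranges overlap. It fell by 0.34 (SE 0.09, edgeR adjusted p = 0.0403). The differences of Srebf2 (-0.20), Insig1 (-0.27), Srebf1 (0.076), Insig2 (-0.036) and Scap (0.16) did not pass the test. The Scd2 call was lost with DESeq2, without the library term and when only cells with Cyp11b1 under 200 CPM were used. Of all genes, 18 of 10590, 3 of 10590 and 25 of 10304 fell in these settings. Whether the S-phase and G2/M differences differ from each other was not tested.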

How the data were processed

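UMI counts per gene and cell barcode in 2 droplet libraries (10x 3' kit version 3.1) were used as the authors deposited them. Per the file headers and the submitters' processing notes they were made with Cell Ranger 3.1.0 on mm10. The cell calling step is not described in the sources used here. Barcodes with at least 1000 UMIs, 500 genes and at most 30% mitochondrial UMIs were kept, which removed 148 and 276. Scrublet (scanpy 1.11.5) then marked 203 and 42 as doublets, at 0.8% per 1000 barcodes, and these were removed. Like-cell doublets stay in, and free RNA was not subtracted. Cortical cells had at least 3000 CPM of Star, Cyp11a1, Hsd3b1 and Cyp21a1 together and under 500 CPM of leukocyte genes. Of them, 223 and 284 had under 5000 UMIs, and 896 and 423 fell between the cycle groups; neither entered the cycle comparisons.

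Counts were summed per group and library, with at least 20 cells in each, into 10 sums for the enzyme groups and 6 for the cycle groups. They were tested with edgeR 4.0.16 in R 4.3.3 (quasi-likelihood, TMM scaling, filterByExpr, terms for group and library, Benjamini-Hochberg over all genes, threshold 0.05). The library term is a replicate block, because both sums of a contrast come from the same library. The enzyme fit had 4 residual and 17.95 prior degrees of freedom, and the cycle fit 2 and 14.35. Standard errors thus borrow from other genes. Values for a single library carry no test. Members and lists were chosen with earlier results of these data known. Full values went to up to 8 genes per comparison with the biggest differences past the threshold, at least 20 CPM in the higher group and the same sign in both libraries, and to the 5 regulators. Other genes of the 30 are named by role, and some of them were also given full values. These include Hmgcs1, Fdps, Stard4, Fads2, Scd1 and Scd2 between Cyp11b1-high and Cyp11b2-high cells, and Ebp in G2/M cells. DESeq2 1.42.0 and the settings of the closing section were alternatives. Promoter windows came from RefSeq on GRCm38.p6, and a gene with several windows counted once if any held a match.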

Additional observations from a re-analysis of the deposited data

How the results depend on the processing

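Leaving out 1 library leaves single-library values with no test: the log2 ratio of the summed 30 genes then ran from -0.677 to -0.522 for Cyp11b1-high against Cyp11b2-high cells, -0.807 to -0.629 for Cyp11b1-intermediate, -0.705 to -0.538 for double-low, -0.171 to -0.15 for double-positive, -0.551 to -0.199 for G2/M and -0.206 to -0.156 for S-phase cells. Without the replicate block of libraries, no gene of the 30 rose in Cyp11b1-high against Cyp11b2-high cells, 8 fell in Cyp11b1-intermediate, 0 in double-low, 0 in double-positive and 0 in S-phase cells. Of all genes, 552 rose in the first, and 53, 1, 0 and 3 fell in the others. Without the block, 1 fell and 0 rose in Cyp11b1-high against double-low cells, 0 and 0 against Cyp11b1-intermediate cells, and 3 fell and 1 rose in G2/M cells. Of all genes, 276 fell and 291 rose, 10 fell and 34 rose, and 189 fell and 922 rose. After thinning to 5000 UMIs, with enzyme groups set anew from the thinned counts, the summed ratio was -0.424 for Cyp11b1-high, -0.557 for Cyp11b1-intermediate, -0.461 for double-low, -0.124 for double-positive and -0.12 for S-phase cells. Thinning left 0 lower genes in double-positive cells, 10 in Cyp11b1-high against double-low cells, 3 higher against Cyp11b1-intermediate cells, and 4 lower and 1 higher in G2/M cells. Of all genes, the same counts were 9, 1014, 510, and 497 and 741. Thinning with the groups kept, chosen after seeing the data, gave 1 lower gene and a ratio of -0.261 in double-positive cells, and 0 lower and 2 higher genes in Cyp11b1-high against Cyp11b1-intermediate cells. Without the low-count filter 5 genes fell in double-positive and 3 in S-phase cells, where 74 of 18295 and 169 of 17890 genes fell. With DESeq2, 4 fell and 1 rose in G2/M cells and 0 fell in S-phase cells. Of all genes, 729 fell and 1385 rose in the former and 18 fell in the latter. In double-positive cells a limit of 100 CPM gave 0 lower genes and a ratio of -0.0397, and keeping doublets a ratio of -0.2. Using only cells with Cyp11b1 under 200 CPM gave 0 lower genes in S-phase cells. Of all genes, 4 of 12012 fell with the limit of 100 CPM, and 25 of 10304 fell in S-phase cells with Cyp11b1 under 200 CPM.

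Only differences that missed the threshold changed sign. Insig2 went to 0.00625 with RLE scaling, 0.0041 with no filter and 0.0314 without Aldh1a1-high cells (Cyp11b1-high cells), to 0.0262 with thinning and 0.00314 without Aldh1a1-high cells (Cyp11b1-intermediate), and to -0.0297 and -0.107 at limits of 100 and 400 CPM and -0.0509 with thinning (double-low). Scap went to 0.015 with doublets kept and 0.174 with thinning (Cyp11b1-intermediate), to 0.146 with thinning (double-low), and to 0.0068 with Cyp11b1 under 200 CPM (G2/M). In double-positive cells Scap went to 0.00612 with RLE scaling, 0.0264 with DESeq2, 0.0471 without the block, 0.0382 with doublets kept, 0.0135 at 15% mitochondrial UMIs and 0.0119 without Aldh1a1-high cells, and Srebf2 to 0.0837 with thinning. With thinning and the groups kept, Insig2 went to 0.161 (Cyp11b1-high), Scap to 0.431 (Cyp11b1-intermediate) and 0.199 (double-low), and Srebf2 to 0.082 (double-positive). The cause of these changes was not tested. Leaving out Aldh1a1-high cells was likewise chosen after seeing the data. Of the other values of named genes, 764 kept direction and side of the threshold, 68 lost the call and 2 gained it. A limit of 400 CPM for double-positive cells and a stricter cycle rule (5 G2/M or 6 S genes) left under 20 cells in a library and gave no value.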

Other observations

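Cells with at least 500 CPM of Aldh1a1, an inner cortex marker, numbered 35 in library 1 and 30 in library 2. Their 19 isoprenoid and sterol enzymes summed to 681.1 and 687.0 CPM and their 5 fatty acid genes to 702.1 and 1118. Fads1 was at 192.6 and 289.9 CPM in them and Scap at 59.5 and 60.9. The X-zone markers Pik3c2g and Akr1c18 were at 0 in the enzyme groups.

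Kept cells with at least 500 CPM of the leukocyte list and under 3000 CPM of Star, Cyp11a1, Hsd3b1 and Cyp21a1 together numbered 83 in library 1 and 72 in library 2. They held 508.0 and 777.5 CPM of the 30 genes together. Ebp was at 84.3 and 89.0 CPM there. These values come from cells outside the cortical groups and were not compared with a test.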
